A study of Homo sapiens with 2 samples.

Results

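The genes described here encode ligands of the TGF-beta family with a pair of secreted proteins that hold or trap them. The 10 genes were chosen by name and all were listed in the deposited table, out of 25534 genes. TGFB1, TGFB2 and TGFB3 encode the TGF-beta isoforms, INHBA and INHBB the beta subunits of activins and inhibins, and BMP2, BMP4 and BMP7 bone morphogenetic proteins. LTBP1 encodes a latent TGF-beta binding protein and FST encodes follistatin. RNA was sequenced from HN6, a cell line derived from squamous carcinoma of the human tongue. There was 1 library of HN6 cells labelled with the genotype ZNF582 overexpression, made with a transfected plasmid and polybrene, and 1 library of HN6 cells labelled with the genotype WT and the treatment Control. ZNF582 encodes a zinc finger protein, and the study asked which signalling pathways change when it is overexpressed in head and neck carcinoma cells. Whether control cells carried an empty vector, whether the overexpressing cells were a pool or 1 clone, and the time between transfection and RNA extraction are not stated in the labels.

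Ligands of this family are secreted as dimers whose propeptides are cut off by proteases such as furin. TGF-beta stays latent, bound to its propeptide and to a latent TGF-beta binding protein in the matrix, until integrins or proteases release it. Activins and TGF-beta signal through type II and type I receptor kinases to SMAD2 and SMAD3, whereas BMPs signal to SMAD1, SMAD5 and SMAD9. In squamous epithelium TGF-beta is known both for holding back proliferation and for promoting invasion in carcinoma.

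The ZNF582 library held 17792172 counts and the control library 14765244. ZNF582 itself had 277387 counts in ZNF582-overexpressing cells, against 14 in control cells, which matches the labels. With 1 library on each side, the differences lack a replicate check and no p-value was computed. In bulk samples, fewer cells of a type and less RNA per cell cannot be told apart. All 13 squamous epithelial markers were listed, with summed levels of 1095 FPKM in ZNF582-overexpressing cells and 855 FPKM in control cells. LAMB3 alone stood at 384 FPKM in ZNF582-overexpressing cells and 158 FPKM in control cells, and the other 12 summed to 711 FPKM in ZNF582-overexpressing cells and 697 FPKM in control cells. By the 2-fold rule given below KRT17, LAMB3 and KRT6A were higher, while 5 of the 13, among them KRT8 and KRT18, had log2 folds below 0 short of the rule. KRT14, a defining keratin of basal squamous cells, stood at only 0.37 FPKM in ZNF582-overexpressing cells and 0.16 FPKM in control cells, while KRT5, its partner, stood at 17.3 FPKM in ZNF582-overexpressing cells and 10.3 FPKM in control cells. Of the fibroblast markers 4 of 9 were listed, with summed levels of 1.36 FPKM in ZNF582-overexpressing cells and 2.23 FPKM in control cells. The fibroblast genes COL1A2, COL3A1, PDGFRA, DCN and THY1 were not listed, LUM and PDGFRB were lower by the 2-fold rule, COL1A1 had a fold of 0.906 (0.743 to 1.10), and FAP had 12 counts in ZNF582-overexpressing cells and 1 in control cells. The 3 of 4 endothelial markers listed summed to 0.250 FPKM in ZNF582-overexpressing cells and 0.343 FPKM in control cells. Of these VWF was higher by the rule, at 16 counts in ZNF582-overexpressing cells and 5 in control cells. CDH5 went the other way, at 29 counts in ZNF582-overexpressing cells and 43 in control cells, a fold of 0.605 (0.364 to 0.992). PECAM1 had 5 counts in ZNF582-overexpressing cells and 7 in control cells. The 2 of 5 leukocyte markers listed summed to 0.979 FPKM in ZNF582-overexpressing cells and 0.718 FPKM in control cells. The part of these markers in the results was not tested.

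INHBA was the ligand gene with the highest level in both libraries, and it was the 1 gene of the 8 ligand genes here more than 2-fold higher in the ZNF582 library. FPKM are the deposited counts scaled by library total and by a length for each gene. For TGFB2 this length was longer than the gene's 5151 exonic bases, and for ID1, a BMP target given below, longer than the whole gene. It also exceeded the exonic bases of most others of the 10 genes, INHBA, TGFB1, BMP4 and FST among them. For BMP2 and INHBB it matched their exonic bases. Levels of genes given too long a length are understated beside others, so orders and shares between genes are approximate. In the ZNF582 library the order was INHBA at 35.6 FPKM, BMP2 at 9.57, TGFB1 at 6.49, TGFB2 at 2.92 and INHBB at 2.39. In the control library it was INHBA at 15.2 FPKM, TGFB1 at 10.8, BMP2 at 5.89, INHBB at 1.80 and TGFB2 at 1.61. TGFB1 and BMP2 thus stood in opposite order in the 2 libraries. In the deposited FPKM TGFB2 and INHBB, neighbours in that order, had overlapping 95% counting intervals in each library. Their intervals were 2.61 to 3.25 FPKM for TGFB2 and 2.00 to 2.82 for INHBB in the ZNF582 library, and 1.36 to 1.89 and 1.44 to 2.22 in the control library. These intervals do not cover the length used, which places TGFB2 too low beside INHBB. The other 5 genes lay at or below 0.311 FPKM in both libraries, and BMP4, LTBP1 and FST had overlapping intervals in each.

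**Figure D1:**
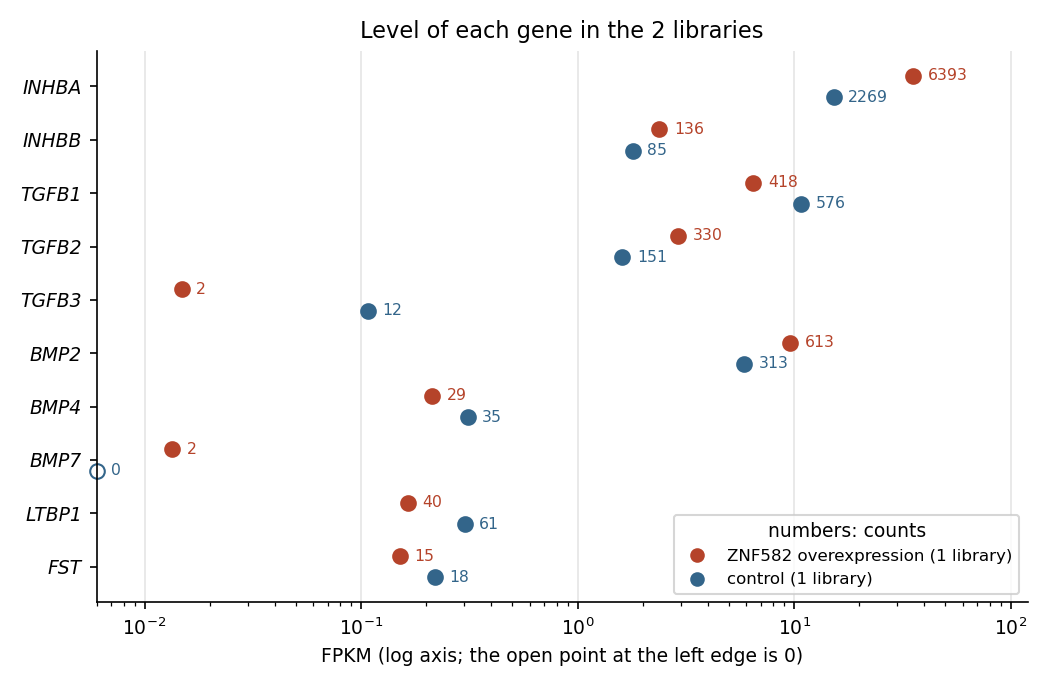
FPKM of the 10 genes on a log axis, with 1 point per library and the count behind each point printed beside it (ZNF582 overexpression above, control below it for each gene). INHBA is the highest in both libraries, at 35.6 FPKM in ZNF582-overexpressing cells and 15.2 FPKM in control cells, and TGFB1 and BMP2 change places.

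Expressed as shares of the summed FPKM of the 8 ligand genes, INHBA made up 62.2% in ZNF582-overexpressing cells and 42.6% in control cells. TGFB1 made up 11.35% in ZNF582-overexpressing cells and 30.2% in control cells. BMP2 held nearly the same share in both, at 16.7% in ZNF582-overexpressing cells and 16.5% in control cells. The sum itself was 57.2 FPKM in ZNF582-overexpressing cells and 35.7 FPKM in control cells. By family, the activin and inhibin beta subunits summed to 38.0 FPKM in ZNF582-overexpressing cells and 17.0 FPKM in control cells. The TGF-beta isoforms summed to 9.42 FPKM in ZNF582-overexpressing cells and 12.5 FPKM in control cells, and the BMPs to 9.79 FPKM in ZNF582-overexpressing cells and 6.20 FPKM in control cells. Deposited FPKM are scaled between libraries by total counts alone, and the limit on length given above holds for these shares.

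For differences, counts were scaled by library totals with TMM factors, and the fold is given with an exact 95% interval that covers counting error only. The call of higher or lower needed a fold of at least 2 and an interval that excluded 1, among the 16669 genes with at least 20 counts over both libraries. Of the 10 genes, 8 reached 20 counts, while TGFB3 and BMP7 did not. INHBA was the 1 gene called higher, where 4.25% of all genes examined were called higher, and 0 were called lower, where 5.02% of all genes were. By the interval alone, without the 2-fold minimum, INHBA, TGFB2, BMP2 and INHBB were higher, where 27.6% of all genes were, and TGFB1 and LTBP1 were lower, where 26.2% were. With 8 genes, 1 gene is 12.5%, so these shares are coarse. The median log2 fold of the 8 genes was 0.05, against -0.0070 over all genes examined, with 4 genes above 0 and 4 below.

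**Figure D2:**
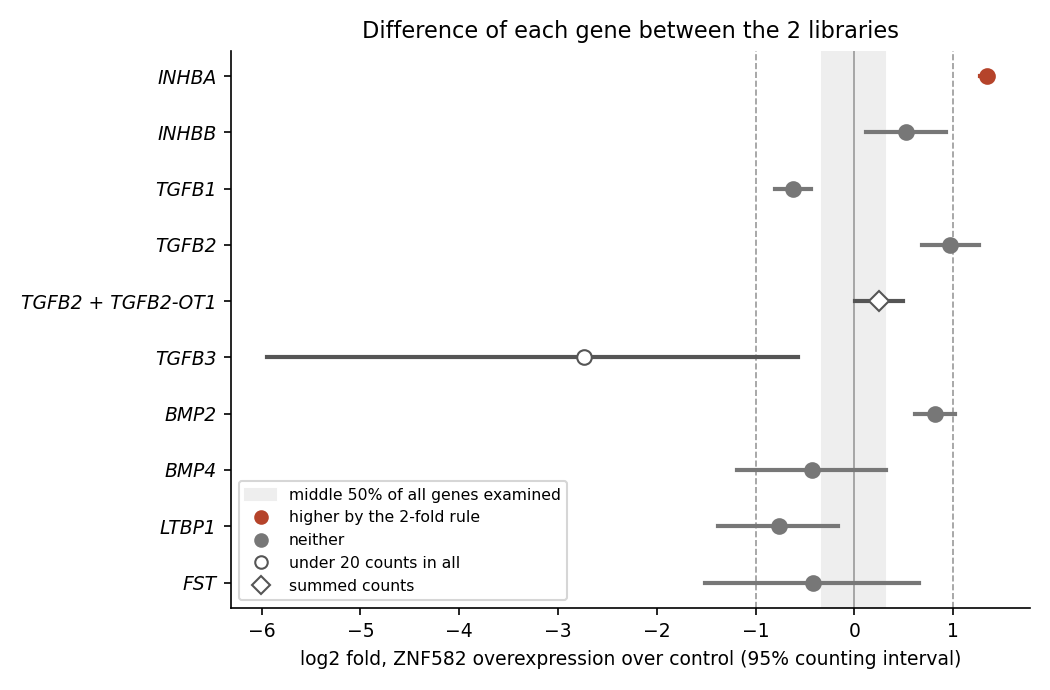
Log2 fold of each gene, ZNF582 overexpression over control, with its 95% counting interval as a bar; dashed lines mark 2-fold and the shaded band holds the middle 50% of all genes examined. INHBA lies past the right dashed line at 1.34, TGFB2 next to it at 0.97, and the summed counts of TGFB2 and TGFB2-OT1 at 0.25; BMP7 is left out because both of its counts are under 3.

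INHBA encodes the beta A subunit, which pairs with itself to form activin A. The gene (ENSG00000122641) occupies bases 41685114 to 41703108 of chromosome 7 on the minus strand, in GRCh38 as for all positions given. It had 6393 counts in ZNF582-overexpressing cells and 2269 in control cells, which makes it by far the best counted of the 10 genes. Its fold was 2.53 (2.41 to 2.65), higher in the ZNF582 library. The log2 fold stayed between 1.17 and 1.38 under every scaling and pseudocount tried. The antisense gene INHBA-AS1 overlaps its span, with 10 counts in ZNF582-overexpressing cells and 8 in control cells, and shares no exon with it.

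INHBB encodes the beta B subunit of activin B and occupies bases 120346143 to 120351808 of chromosome 2 on the plus strand. It had 136 counts in ZNF582-overexpressing cells and 85 in control cells, a fold of 1.44 (1.09 to 1.91). Both subunit genes were thus higher by the interval alone, INHBB by less. The fold of INHBA was 1.76 times that of INHBB (1.32 to 2.34), a ratio from which the scaling of the libraries cancels. INHBA supplied 93.7% of the summed FPKM of the pair in ZNF582-overexpressing cells and 89.4% in control cells.

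The 300-base windows around the start sites of the beta subunit genes and of TGFB1 and TGFB2 are shown because these paralogs differed in the size or the direction of their folds. Sequences are from RefSeq on GRCh38.p14, run from 250 bases before the start site to 50 bases from it, read 5′ to 3′ on the gene's strand. Capitals mark matches on either strand to any of 6 motifs. The TATA box was searched as TATAAA, and 11.5% of 35116 promoter windows of this length held it. The GC box was searched as GGGCGG, held by 45.0% of windows. The SMAD element was searched as CAGACA, held by 16.9% of windows, and the E-box was searched as CACGTG, held by 7.26% of windows. The AP-1 site, searched as TGANTCA, was in 7.71% of windows, and the cyclic AMP response element, searched as TGACGTCA, in 1.85%. The INHBA window is chr7:41703041-41703340 on the minus strand, INHBB chr2:120345886-120346185 on the plus strand, TGFB1 chr19:41353873-41354172 on the minus strand and TGFB2 chr1:218345086-218345385 on the plus strand.
INHBA: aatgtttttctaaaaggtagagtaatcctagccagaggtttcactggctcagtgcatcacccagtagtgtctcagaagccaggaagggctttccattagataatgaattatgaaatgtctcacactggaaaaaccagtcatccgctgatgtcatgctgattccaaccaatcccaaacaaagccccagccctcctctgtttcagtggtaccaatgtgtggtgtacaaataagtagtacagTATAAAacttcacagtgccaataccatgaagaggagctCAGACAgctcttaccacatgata
INHBB: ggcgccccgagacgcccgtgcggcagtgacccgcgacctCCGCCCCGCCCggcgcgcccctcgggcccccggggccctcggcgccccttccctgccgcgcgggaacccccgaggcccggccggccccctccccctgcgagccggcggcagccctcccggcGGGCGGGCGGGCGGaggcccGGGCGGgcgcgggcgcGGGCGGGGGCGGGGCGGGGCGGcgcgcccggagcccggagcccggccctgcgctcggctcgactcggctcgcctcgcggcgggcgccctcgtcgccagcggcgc
TGFB1: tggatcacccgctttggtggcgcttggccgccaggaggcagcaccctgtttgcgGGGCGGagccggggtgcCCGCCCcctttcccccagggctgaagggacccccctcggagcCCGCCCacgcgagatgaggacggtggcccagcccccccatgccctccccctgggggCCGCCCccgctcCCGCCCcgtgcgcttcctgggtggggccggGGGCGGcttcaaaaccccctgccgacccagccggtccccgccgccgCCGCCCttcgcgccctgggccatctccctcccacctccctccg
TGFB2: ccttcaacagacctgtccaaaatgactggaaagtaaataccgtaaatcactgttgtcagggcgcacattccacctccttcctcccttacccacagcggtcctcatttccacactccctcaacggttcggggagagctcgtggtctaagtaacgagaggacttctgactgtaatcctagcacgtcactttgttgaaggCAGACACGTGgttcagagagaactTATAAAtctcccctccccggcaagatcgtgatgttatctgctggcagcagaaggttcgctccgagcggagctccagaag

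The INHBA window held 1 TATA box at bases 240 to 245 and 1 SMAD element at bases 278 to 283, with 43.3% G and C. The INHBB window held 10 matches to the GC box, some of which overlap one another, and 0 to the other motifs, with 88.7% G and C. The TGFB1 window likewise held only GC boxes, 7 of them, with 77.3% G and C. The TGFB2 window held 1 TATA box, and 1 SMAD element whose last bases overlap 1 E-box, with 51.7% G and C. These matches describe letters only. The RefSeq start site of TGFB2 used here lies 899 bases before the first base of the gene in the deposited table, and that of INHBA 18 bases inside it. Of the 10 genes, 8 matched an entry, and BMP2 and BMP7 did not.

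TGFB1 encodes the TGF-beta isoform most widely made by epithelial and stromal cells. It occupies bases 41301587 to 41353911 of chromosome 19 on the minus strand. It had 418 counts in ZNF582-overexpressing cells and 576 in control cells. It was 1.54-fold lower in the ZNF582 library (1.35 to 1.75), short of the 2-fold rule. Its log2 fold stayed between -0.73 and -0.58 over the alternatives tried. The genes CCDC97, TMEM91, HNRNPUL1 and AC011462.1 on the other strand overlap its span. Only HNRNPUL1, with 4650 counts in ZNF582-overexpressing cells and 3772 in control cells, shares exonic bases with TGFB1. Whether counting used strand is not stated, so reads from those bases cannot be told apart.

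TGFB2 encodes the isoform whose latent form lacks the integrin binding motif of the other isoforms. The gene occupies bases 218346235 to 218444619 of chromosome 1 on the plus strand. It had 330 counts in ZNF582-overexpressing cells and 151 in control cells, a fold of 1.96 (1.61 to 2.39). This value sat just under the 2-fold rule, and with the size factors of DESeq2 it passed, at a log2 fold of 1.01. Set against TGFB1, the fold of TGFB2 was 3.01 times as large (2.38 to 3.82). TGFB2 made up 31.0% of the summed FPKM of the 3 isoforms in ZNF582-overexpressing cells and 12.9% in control cells.

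The value for TGFB2 rests on how reads were divided with a second listed gene. TGFB2-OT1, annotated as an overlapping noncoding RNA, spans 218442626 to 218443996 on the same strand, and this whole stretch of 1371 bases lies inside the last exon of TGFB2 (218441204 to 218444619). It takes up 26.6% of the 5151 exonic bases of TGFB2. TGFB2-OT1 had 4 counts in ZNF582-overexpressing cells and 101 in control cells, and was 28.1-fold lower in the ZNF582 library (10.7 to 105.3). Its level was 0.16 FPKM in ZNF582-overexpressing cells and 4.99 FPKM in control cells, where it stood above TGFB2 itself. Summed, TGFB2 and TGFB2-OT1 had 334 counts in ZNF582-overexpressing cells and 252 in control cells, a fold of 1.19 (1.01 to 1.41). The summed fold was still 1.83 times that of TGFB1 (1.48 to 2.26). How reads on the shared bases were divided is not stated, and its part in the TGFB2 value was not tested.

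**Figure D3:**
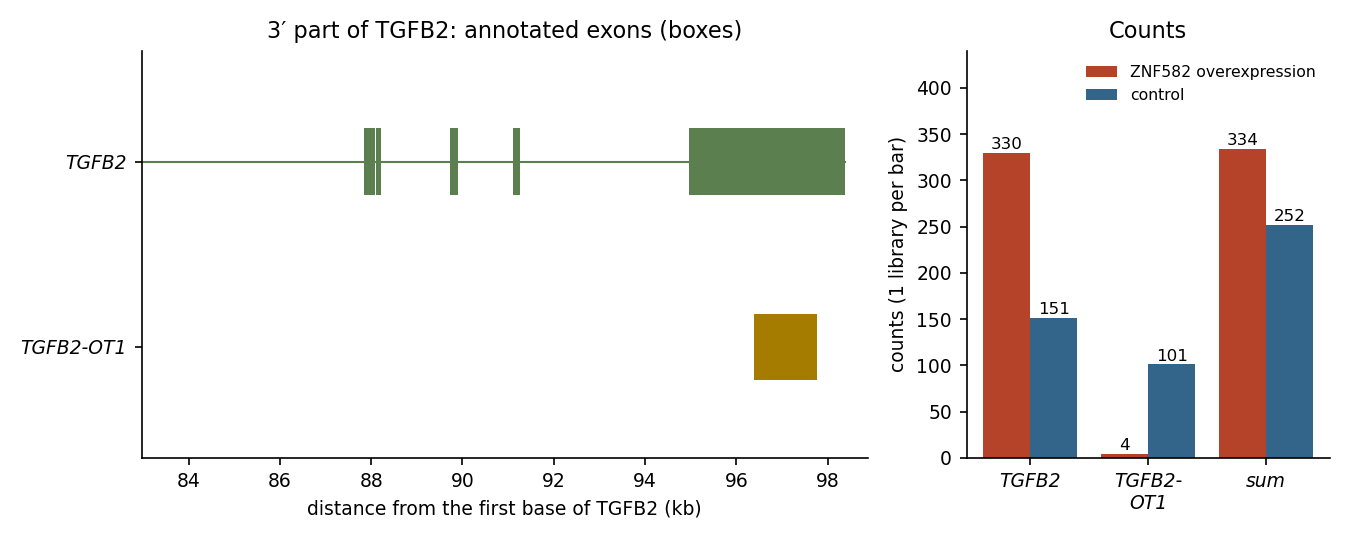
Left, annotated exons (boxes) over the last kilobases of TGFB2 and the span of TGFB2-OT1, by distance from the first base of TGFB2; right, counts of each gene and their sum, with the ZNF582 library left of the control library. TGFB2-OT1 lies within the last exon of TGFB2 and the sums of 334 and 252 are closer than the counts of either gene.

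TGFB3, the remaining isoform, was near the limit of detection, with 2 counts in ZNF582-overexpressing cells and 12 in control cells. Its level was 0.0148 FPKM in ZNF582-overexpressing cells and 0.107 FPKM in control cells. It was 6.69-fold lower in the ZNF582 library, with a counting interval of 1.49 to 61.5. It occupies bases 75958099 to 75982991 of chromosome 14 on the minus strand. TGFB3-AS1 on the other strand shares exonic bases with it and had 2 counts in ZNF582-overexpressing cells and 3 in control cells, so even this difference is uncertain. The gene IFT43 on that strand also spans TGFB3, without a shared exon.

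BMP2, a ligand known for inducing bone and cartilage and for acting through SMAD1 and SMAD5, was the main BMP of these cells. It occupies bases 6767664 to 6780280 of chromosome 20 on the plus strand. It had 613 counts in ZNF582-overexpressing cells and 313 in control cells, a fold of 1.76 (1.53 to 2.02), short of the 2-fold rule. No other listed gene overlaps its span. BMP2 supplied 97.7% of the summed BMP FPKM in ZNF582-overexpressing cells and 94.99% in control cells. The length used for BMP4 exceeded its exonic bases and that for BMP2 did not. The level of BMP4 is thus understated and the share of BMP2 overstated. BMP4, the closest paralog of BMP2, had 29 counts in ZNF582-overexpressing cells and 35 in control cells. Its level was 0.214 FPKM in ZNF582-overexpressing cells and 0.311 FPKM in control cells. Its fold of 0.743 had an interval of 0.438 to 1.25, so a difference was not detectable at this depth. The fold of BMP2 was 2.36 times that of BMP4 (1.37 to 4.09). BMP4 occupies bases 53949736 to 53958761 of chromosome 14 on the minus strand. BMP7, at bases 57168748 to 57266629 of chromosome 20 on the minus strand, had 2 counts in ZNF582-overexpressing cells and 0 in control cells, where a count of 0 allows up to 3 counts, or 0.203 CPM by the library total. No fold is given for it.

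LTBP1 tethers latent TGF-beta to the extracellular matrix. It occupies bases 32946972 to 33399509 of chromosome 2 on the plus strand. It had 40 counts in ZNF582-overexpressing cells and 61 in control cells, and was 1.70-fold lower in the ZNF582 library (1.12 to 2.60), short of the 2-fold rule. Its level was 0.164 FPKM in ZNF582-overexpressing cells and 0.301 FPKM in control cells. Its fold was 0.904 times that of TGFB1 (0.579 to 1.40), so the difference between these genes' folds was within counting error. FST, at bases 53480409 to 53487134 of chromosome 5 on the plus strand, encodes the secreted protein that binds and neutralises activins. It had only 15 counts in ZNF582-overexpressing cells and 18 in control cells, with a fold of 0.748 (0.351 to 1.57). FST levels were 0.15 FPKM in ZNF582-overexpressing cells and 0.22 FPKM in control cells, far below those of INHBA. The fold of INHBA was 3.38 times that of FST (1.61 to 7.22).

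The other genes of the pathway were grouped by role in 7 lists. Some genes, ITGB6, LTBP2 and SMAD6 among them, are in more than 1 list, so counts by list add to more than the totals. The lists hold 146 genes besides the 10, of which 123 were listed and 98 examined. Of these, 5 passed the 2-fold rule as higher, 7 passed as lower and 86 did neither. That is 5.10% higher and 7.14% lower, against 4.25% and 5.02% of all genes examined. Their median log2 fold was -0.0021, close to the -0.0070 of all genes. By the interval alone 29 of the 98 were higher, where 27.6% of all genes were, and 33 were lower, where 26.2% were. By list, in that measure, the latency and activation genes had 1 higher and 9 lower of 18, the antagonists 2 higher and 5 lower of 9, and the receptors 1 higher and 6 lower of 14. The TGF-beta and activin targets had 16 higher and 7 lower of 31, and the SMAD genes and regulators 6 higher and 6 lower of 19. The other ligands had 2 higher and 1 lower of 5, and the BMP targets 2 higher and 2 lower of 11.

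Of 25 other ligands 15 were listed and 5 had enough counts. GDF9, known as a growth factor of the oocyte, was the 1 gene higher by the rule, where 4.25% of all genes were. It had 21 counts in ZNF582-overexpressing cells and 2 in control cells. Its ratio was 9.42 (2.30 to 82.9), and it shares exonic bases with UQCRQ, which makes it uncertain. AMH, the anti-Mullerian hormone gene, had a fold of 1.46 (1.11 to 1.93), and GDF11 was 1.32-fold lower in the ZNF582 library (1.05 to 1.66). Neither passed the rule, and GDF11 shares exonic bases with SARNP and AC023055.1. GDF9, and TLL1, SMAD6 and ID2 below, have under 100 counts and were named after their values were seen. So were FURIN, FSTL3, TGFBR1, TGFBR2, ACVR1B, SMAD3, SMAD7, CCN1, TGFBI and PMEPA1, which the rule for names does not take.

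Of 18 genes of latency and activation examined, 12 had a log2 fold below 0, where 8420 of all 16669 genes did. Their median was -0.17, and 1 was lower by the rule, where 5.02% of all genes were. The gene lower by the rule was TLL1, a BMP1-like metalloprotease gene, at 3 counts in ZNF582-overexpressing cells and 17 in control cells. LTBP3, another latent TGF-beta binding protein, had 840 counts in ZNF582-overexpressing cells and 1200 in control cells and was 1.59-fold lower (1.46 to 1.74). ITGB6 and ITGB8, whose products form the integrins that activate latent TGF-beta, were 1.48-fold and 1.56-fold lower in the ZNF582 library. None of these 3 reached 2-fold, and ITGB8 shares exonic bases with AC004130.2. FURIN, a propeptide-cutting protease, stood at a log2 fold of -0.18.

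Among extracellular antagonists, 3 of 9 examined genes were lower by the rule and 0 higher, where 5.02% and 4.25% of all genes were. NOG encodes noggin, which binds BMPs and keeps them from their receptors. It had 36 counts in ZNF582-overexpressing cells and 115 in control cells, and was 3.56-fold lower (2.43 to 5.33). TSKU, which encodes a secreted protein known to bind BMPs in chick and frog embryos, had 217 counts in ZNF582-overexpressing cells and 447 in control cells and was 2.30-fold lower (1.95 to 2.71). The follistatin-like gene FSTL5 had 131 counts in ZNF582-overexpressing cells and 293 in control cells and was 2.49-fold lower (2.02 to 3.09). FSTL3, a follistatin-like inhibitor of activin, lay on the other side, at 122 counts in ZNF582-overexpressing cells and 59 in control cells. Its fold was 1.86 (1.35 to 2.58), short of the rule. The median of the 9 genes was -0.14.

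Of 14 receptor and co-receptor genes examined, 0 were higher and 0 lower by the rule, where 4.25% and 5.02% of all genes were. Their log2 folds ran from -0.82 to 0.32, with a median of -0.13. TGFBR3, which encodes the co-receptor betaglycan, had 463 counts in ZNF582-overexpressing cells and 732 in control cells and was 1.76-fold lower (1.57 to 1.98). The type I receptor gene ACVR1C was 1.41-fold lower and NEO1, which encodes the receptor neogenin, 1.36-fold lower. The genes of the TGF-beta receptor kinases stood at log2 folds of -0.14 for TGFBR2 (type II) and -0.11 for TGFBR1 (type I). The activin type I receptor gene ACVR1B stood at 0.08.

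Of 19 SMAD genes and SMAD regulators examined, 2 were lower and 0 higher, where 5.02% and 4.25% of all genes were. Their median was 0.03. SMAD6, an inhibitory SMAD of BMP signalling, had 14 counts in ZNF582-overexpressing cells and 63 in control cells and was 5.02-fold lower (2.78 to 9.69). TGIF2, which encodes a corepressor that binds SMADs, had 207 counts in ZNF582-overexpressing cells and 451 in control cells and was 2.43-fold lower (2.06 to 2.88), with exonic overlap with the readthrough gene TGIF2-RAB5IF. SMAD2 was 1.39-fold lower, and USP15, a deubiquitinase of the TGF-beta receptor complex, had a fold of 1.41. SMAD3, the other activin and TGF-beta effector, stood at a log2 fold of -0.17, and the inhibitory SMAD7 at -0.01.

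Genes known as targets of TGF-beta and activin lay on both sides of 0. Of 31 examined, 3 were higher and 0 lower by the rule, where 4.25% and 5.02% of all genes were. Of the 31, 20 lay above 0 and 11 below, and the median was 0.10. IL11, which encodes a cytokine of the IL6 family, had 1441 counts in ZNF582-overexpressing cells and 328 in control cells, a fold of 3.94 (3.49 to 4.46). KLF10, first known as a TGF-beta inducible early gene, had 6261 counts in ZNF582-overexpressing cells and 2126 in control cells, a fold of 2.64 (2.51 to 2.78). SNAI2, which encodes the repressor Slug, had 2025 counts in ZNF582-overexpressing cells and 595 in control cells, a fold of 3.05 (2.79 to 3.35). CCN1, which encodes a matrix-associated signalling protein, had a fold of 1.69 (1.64 to 1.74), short of the rule. On the other side TGFBI was 1.69-fold lower and PMEPA1, which shares exonic bases with NKILA, 1.45-fold lower in the ZNF582 library. Targets of BMPs were also divided. Of 11 examined, ID2 was higher, ID1 was lower, SMAD6 (also in the list of SMAD genes) was lower, and the median was -0.01. ID1, an inhibitor of helix-loop-helix factors that BMPs induce, had 302 counts in ZNF582-overexpressing cells and 617 in control cells and was 2.28-fold lower (1.98 to 2.62). ID2 had 61 counts in ZNF582-overexpressing cells and 12 in control cells, a fold of 4.56 (2.43 to 9.31). ID3 had a fold of 1.12 (0.920 to 1.36), and GATA2 a fold of 1.77 (1.48 to 2.11).

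**Figure D4:**
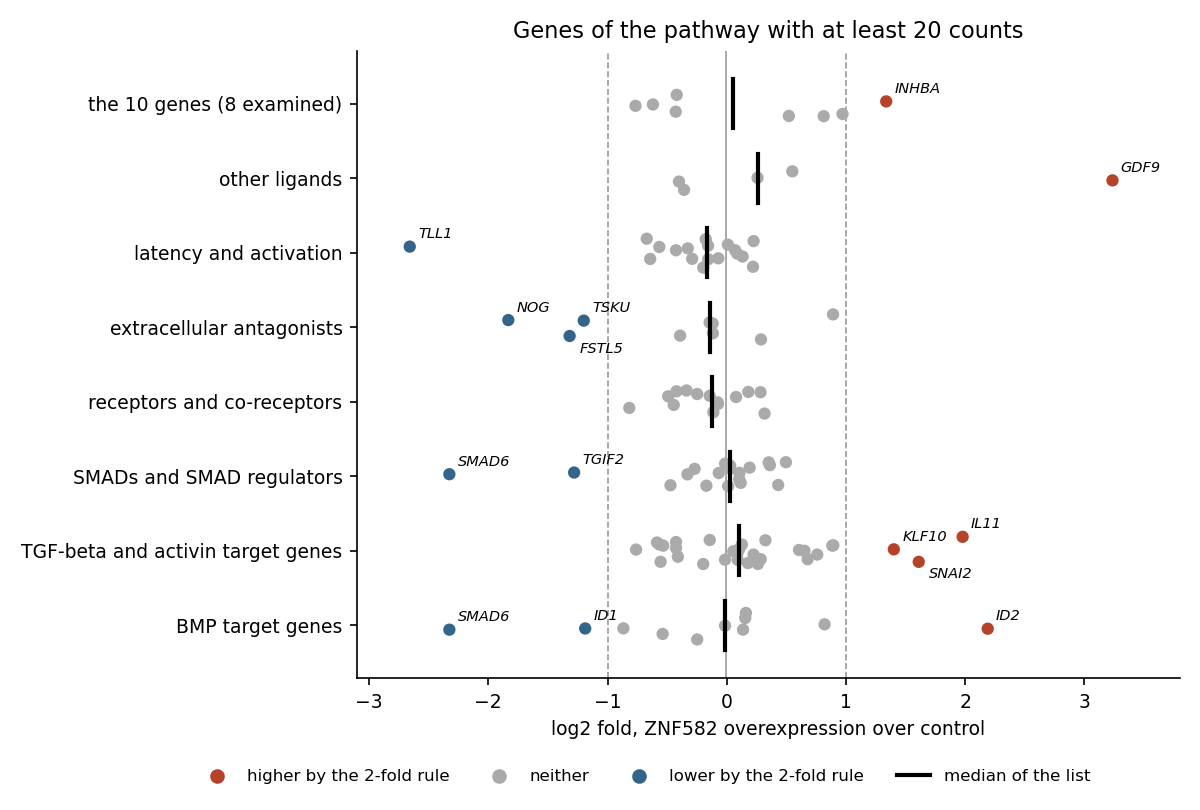
Log2 fold, ZNF582 overexpression over control, of each examined gene (1 point per gene) in the 7 pathway lists and the 10 genes, with the median of each list as a black bar; dashed lines mark 2-fold and points are moved up or down only to separate them. The 3 antagonist genes past 2-fold lie on the left and the 3 TGF-beta and activin targets past 2-fold on the right, while the medians stay between -0.17 and 0.26.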

How the data were processed

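RNA was sequenced in 1 library of ZNF582-overexpressing HN6 cells and 1 control library. Libraries were made from total RNA with the VAHTS Universal V6 kit, per the labels' protocols. HISAT2 2.0.4, StringTie 1.3.0 and the GRCh38 build are named, per the submitters' processing notes. No source used here names the counting program, annotation release or strand setting. Deposited counts are whole numbers and were treated as estimated counts, because the authors' counting method is not stated. The authors deposited FPKM values with no scaling between libraries beyond total counts. In 8848 genes with over 200 counts in each library, the ratio of both libraries' counts over that of their FPKM was 1.205. That equals the ratio of the totals. Gene length cancels from this check, so it does not test the length used, which for TGFB2 exceeded its exonic bases. The TGFB1 record, broken over 2 lines, was rejoined.

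Counts were scaled by totals with TMM factors (0.962 for the ZNF582 library and 1.04 for control) from edgeR 4.0.16 in R 4.3.3, computed on genes with at least 20 counts. Intervals of folds are exact 95% Clopper-Pearson intervals given the sum of both counts. Intervals of FPKM are exact 95% Poisson intervals of the count in that library, scaled to FPKM. Ratios of 2 folds are sample odds ratios of the counts, with exact conditional 95% intervals, and 8 such pairs were computed. Reads carry no molecular identifiers, so intervals and the floor of 3 counts cover counting error only. Exonic overlap, on either strand, came from GENCODE 29, where 25271 of 25534 gene identifiers were found and 9 of the 10 genes, all but INHBA, had the same span. The 10 genes, the lists and the rule for names were chosen with earlier results of these data known. The rule took the 10 genes, listed genes overlapping them, and from each list the genes with 100 or more counts that passed the 2-fold rule, filled to 3 by size of fold. With 2 libraries each gene has 1 fold, so no genes were ranked by likeness to the 10. Procedures were tested on simulated data. Software was scipy 1.17.1, Python 3.11.15, pandas 2.3.3, matplotlib 3.10.9 and numpy 2.4.6, and size factors of DESeq2 1.42.0 served as an alternative.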

Additional observations from a re-analysis of the deposited data

How the results depend on the processing

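No paired analysis was possible because each group has 1 library, and no library could be left out. All 8 examined genes of the 10 kept their direction in every scaling, pseudocount and summing tried. Of the 10 genes, 2 were higher with DESeq2 size factors (INHBA and TGFB2), 3 were higher and 2 lower at a 1.5-fold threshold, and 4 were higher and 2 lower with no fold threshold. With no minimum count 1 was lower, TGFB3 on 14 counts in all. For all genes, a minimum of 100 counts gave 395 higher and 352 lower, log2(FPKM + 1) gave 153 and 158, a 1.5-fold threshold 1650 and 1823, and no fold threshold 4606 and 4360. For the other pathway genes these settings gave 3 higher with a minimum of 100 counts, 3 higher and 2 lower with log2(FPKM + 1), 12 higher and 12 lower at 1.5-fold, and 29 higher and 33 lower with no threshold. Each follows from fewer genes, a damped fold or a looser threshold. Without TMM factors the median log2 fold of all genes moved by -0.11, and 34.0% of all called genes were higher, against 45.9% with them, while the 10 genes and the other pathway genes kept 1, 0, 5 and 7 calls. Leaving ZNF582 out of the totals moved that median by -2.1e-05. Depth limits TGFB3, BMP7, FST, BMP4 and LTBP1, whose counts sum to 101 or fewer.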
